A study of Mus musculus with 4 samples.

Results

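The genes described here encode the chaperones that hand histones H3 and H4 to DNA. They are 10 of the 21887 protein-coding genes placed on the mouse chromosomes by RefSeq, taken as a list by name. The list and its 2 classes were chosen with earlier results of these data known. Of the 10 genes, 5 act with or ahead of replication (Chaf1a, Chaf1b, Asf1a, Asf1b and Nasp) and 5 serve the replacement histone H3.3 (Hira, Ubn1, Cabin1, Daxx and Atrx). Their accessible regions were read from ATAC-seq, which inserts sequencing adapters into open chromatin with a transposase, of sorted thymocytes of C57BL/6 mice at the double-positive stage (DP, CD4+CD8+). The 4 samples, each from 50000 sorted cells, fell into 2 groups of 2. Mice of the wild-type group (WT) carried floxed Chaf1b alleles (CHAF1b floxp/floxp) and no Cre, and mice of the knockout group (KO) carried the same alleles with Cd4-cre, so that both groups shared the loxP sites. Cd4-cre is driven by regulatory elements of Cd4 and acts from around the DP stage of the T lineage on. Divisions before Cre acted took place with Chaf1b. The values used here do not show when, or in what share of the cells, Chaf1b was lost. The labels read here do not state the age of the mice. The authors pooled both replicates of a group into 1 list of regions, and therefore no difference below has a replicate check or a test between groups.

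Chromatin assembly factor 1 (CAF-1) binds the replication clamp and places newly made H3 and H4 on both daughter strands as the fork passes. Asf1a and Asf1b bind an H3-H4 dimer and pass it to CAF-1 or to the HIRA complex, and Nasp keeps a reserve of soluble H3-H4. The HIRA complex (Hira, Ubn1 and Cabin1) deposits H3.3 at active genes without need of replication, while Daxx with the remodeller Atrx deposits it at repeats, telomeres and other heterochromatin. DP thymocytes arise from a burst of division and then mostly rest.

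A gene end is used here for the window of 1000 bp on either side of each annotated end of a gene, in RefSeq positions of GRCm38, the assembly behind mm10. A WT region was counted as kept where a KO region overlapped it by at least 1 bp. Reads at a summit were solved from the deposited fold enrichment and p, and carry exact Poisson 95% intervals. The depth of the KO list was 0.752 times that of the WT list, and depth alone would put 42.9% of summed reads in KO. Intervals on reads and shares cover counting error only.

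The promoter windows below, from RefSeq (GRCm38.p6), run from 250 bases before to 50 bases after a gene start, and such windows were given for all 10 genes. They are shown for Chaf1a and Chaf1b, for Asf1b and Ubn1, which had the lowest KO shares of reads, and for Hira and Atrx, whose gene-end regions were called in WT only. Chaf1a lies at chr17:56040166-56040465, Chaf1b at chr16:93883651-93883950, Asf1b at chr8:83955444-83955743, Ubn1 at chr16:5049807-5050106 and Hira at chr16:18876500-18876799, all on the plus strand. The Atrx window is chrX:105929323-105929622 on the minus strand. Each runs 5′ to 3′ along its gene, and capitals mark the searched motifs, read on either strand and so shown either as spelled here or as the reverse complement. The motifs with a match were the CCAAT box (CCAAT), the GC box (GGGCGG), the core bound by ETS factors (CCGGAAG) and the word of the factor YY1 (AAGATGGCG).
Chaf1a: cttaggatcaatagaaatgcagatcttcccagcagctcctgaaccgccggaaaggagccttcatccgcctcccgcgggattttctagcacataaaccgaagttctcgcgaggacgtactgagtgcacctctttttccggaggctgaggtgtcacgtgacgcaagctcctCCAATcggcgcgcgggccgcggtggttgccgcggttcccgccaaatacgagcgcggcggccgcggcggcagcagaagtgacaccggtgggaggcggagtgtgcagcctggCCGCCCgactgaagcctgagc
Chaf1b: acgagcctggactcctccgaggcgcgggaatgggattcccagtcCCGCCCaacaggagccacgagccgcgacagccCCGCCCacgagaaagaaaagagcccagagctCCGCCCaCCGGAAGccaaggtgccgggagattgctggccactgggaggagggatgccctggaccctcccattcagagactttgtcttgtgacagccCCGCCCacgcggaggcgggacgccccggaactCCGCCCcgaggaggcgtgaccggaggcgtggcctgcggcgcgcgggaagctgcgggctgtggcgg
Asf1b: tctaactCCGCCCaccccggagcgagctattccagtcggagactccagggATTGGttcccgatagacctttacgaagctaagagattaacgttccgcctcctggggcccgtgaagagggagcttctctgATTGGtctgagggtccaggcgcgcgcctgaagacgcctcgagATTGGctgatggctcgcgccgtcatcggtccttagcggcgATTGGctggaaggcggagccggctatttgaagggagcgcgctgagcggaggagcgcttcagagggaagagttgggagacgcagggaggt
Ubn1: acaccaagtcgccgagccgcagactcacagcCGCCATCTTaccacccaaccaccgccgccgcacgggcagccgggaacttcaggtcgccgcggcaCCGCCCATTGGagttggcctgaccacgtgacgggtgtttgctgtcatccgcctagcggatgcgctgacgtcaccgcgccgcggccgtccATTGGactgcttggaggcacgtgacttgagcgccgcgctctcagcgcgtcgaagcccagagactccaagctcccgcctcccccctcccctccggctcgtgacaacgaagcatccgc
Hira: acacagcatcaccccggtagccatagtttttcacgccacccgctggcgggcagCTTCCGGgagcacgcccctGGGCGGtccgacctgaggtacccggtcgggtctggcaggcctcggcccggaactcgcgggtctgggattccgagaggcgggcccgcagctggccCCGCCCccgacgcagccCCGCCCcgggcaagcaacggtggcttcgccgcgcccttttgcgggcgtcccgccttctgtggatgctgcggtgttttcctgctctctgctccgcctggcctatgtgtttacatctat
Atrx: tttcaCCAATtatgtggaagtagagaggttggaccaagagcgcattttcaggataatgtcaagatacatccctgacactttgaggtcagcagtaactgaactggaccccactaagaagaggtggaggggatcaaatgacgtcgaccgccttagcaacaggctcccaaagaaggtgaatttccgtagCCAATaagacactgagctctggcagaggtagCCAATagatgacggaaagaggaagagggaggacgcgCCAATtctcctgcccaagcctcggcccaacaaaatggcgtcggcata
Neighbouring or overlapping matches form longer runs of capitals, as the GC box and CCAAT box of Ubn1 do.

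The promoters of both classes were rich in CpG and alike in the words they held. CCAAT occurred in 8 of 10 members, 4 of each class, with 4 matches in Asf1b and 4 in Atrx. Among all 32851 RefSeq promoter windows, 37.4% held CCAAT, as did 44.7% of the 7414 that overlapped a WT region. The GC box was in 8 of 10 members, with 5 matches in Chaf1b, beside 35.7% of all windows and 71.1% of those in WT regions. The ETS core was in Chaf1b, Hira and Daxx, where 8.86% of all windows and 22.6% of those in WT regions held it. The YY1 word was in Ubn1, beside 1.40% of all windows and 3.48% of those in WT regions. The NRF1 word GCATGCGC (in 2.71% of windows) and the E2F words (TTTGGCGC or TTTCCCGC or TTTCGCGC or TTTGCCGC, any of them in 2.26%) had no match in these 10 windows. In the windows that overlapped a WT region, their shares were 6.50% and 4.99%. Daxx has 3 listed starts, and the first was used for these counts. CpG counts of the members ran from 11 in Atrx to 36 in Ubn1 with a median of 30.5, against a median of 7 over all windows and 23 over those in WT regions. Atrx and Nasp (13) stood well below the other members, and both also lacked a GC box.

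Nearly all of the chaperone genes were accessible at their starts in WT. A gene-end region was called in WT for 9 of 10 genes and in KO for 7 of 10, where 34.6% of all protein-coding genes had one in WT and 21.1% in KO. All 9 WT regions lay at the 5′ end and none at the 3′ end, with summits from 168 bp before to 25 bp after the RefSeq start. Of the 9, 7 were kept in KO (77.8%, exact Clopper-Pearson 95% interval 39.99 to 97.2), against 59.0% of the 7571 protein-coding genes with a WT gene-end region. The members' interval holds that background.

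**Figure D1:**
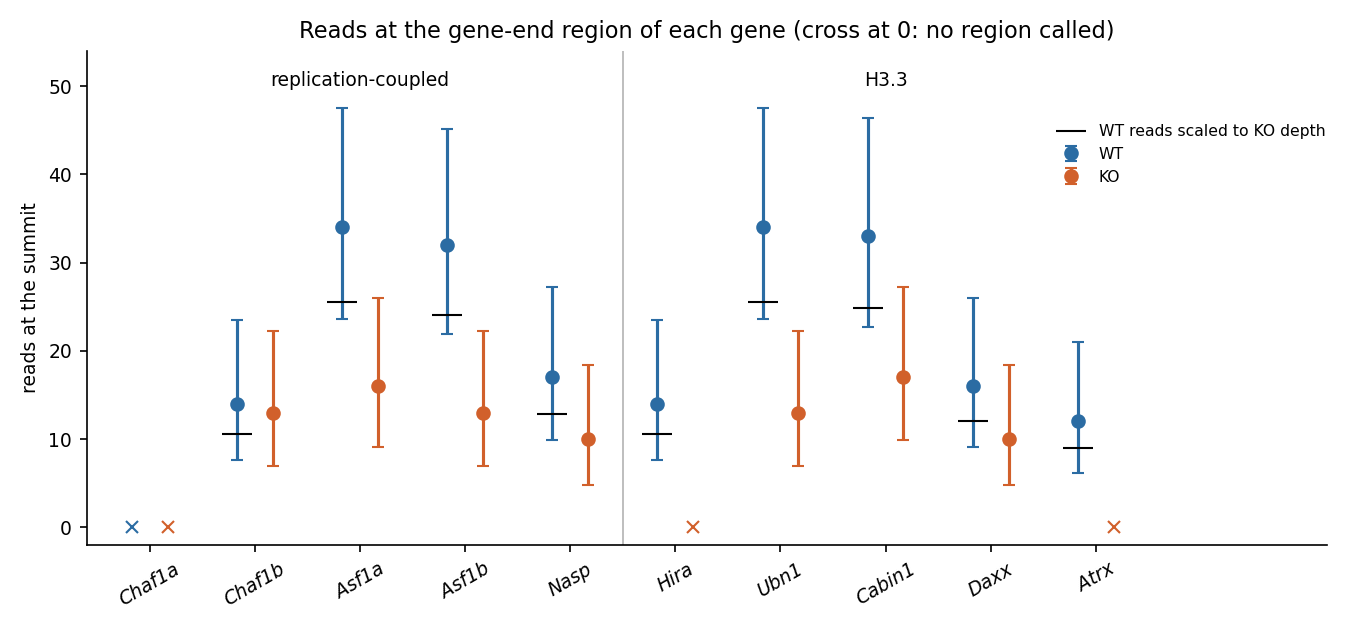
Reads at the summit of the gene-end region (y axis) of each gene in WT (blue) and KO (orange), with exact Poisson 95% intervals; black dashes are the WT reads scaled to KO depth, and a cross at 0 marks a list without a region, not a measured 0. Asf1a, Asf1b, Ubn1 and Cabin1 had 32 to 34 reads in WT and 13 to 17 in KO, and the other genes with a WT region had 12 to 17 in WT.

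Of the genes for the p60 and p150 subunits of CAF-1, only Chaf1b had a region at its start. Chaf1b (chromosome 16, 93883900 to 93906115), which encodes p60 and is the gene deleted in KO, had a WT region of 342 bp (93883721 to 93884062) with a summit 4 bp after the start. It held 14 reads in WT (7.65 to 23.5) and 13 in KO (6.92 to 22.2), with fold enrichments of 5.60 and 5.74. The KO share of its reads was 48.1% (28.7 to 68.1), the highest among the members and above the depth share, which its interval holds. A share exists only where KO was also called. At a local background like that of the WT region downstream of Chaf1b, KO calls began at 9 reads. A region with 14 WT reads could therefore not show a low share, and the rank of Chaf1b is not a sign of more signal in KO. The KO region covered 204 bp (93883722 to 93883925) and began 1 bp from where the WT region began, but ended before it. Since the labels do not place the loxP sites, a call at the start says nothing of the deletion. Only 22.4% of the 388 WT gene-end regions with 14 reads were kept in KO, and Chaf1b was among them. Downstream of the gene, a WT region of 200 bp (93908291 to 93908490) held 16 reads, and the nearest KO region was 24.4 kb away, at the Chaf1b start.

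Chaf1a (chromosome 17, 56040416 to 56068026), which encodes the large p150 subunit, was the one member with no gene-end region in either list, although its promoter window holds 32 CpG, a CCAAT box and a GC box. Its nearest region lay 3.82 kb before the start, at the start of the neighbour Sh3gl1, with 14 reads in WT and 13 in KO. Another lay inside Ubxn6, 34.6 kb after the start of Chaf1a (56074944 to 56075218), with 29 reads in WT and no KO counterpart. Of the 244 WT regions with 29 reads, 85.7% were kept. A missing call does not show that the Chaf1a promoter was closed. The genes nearest to Chaf1b in summit reads, by the summed difference over the 2 lists, matched it exactly. They were 16 of 4307 genes, the first by name being Atp6v0c, Ccl27a, Ciao2a, Galns and Hmgb1.

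Among the genes that supply H3-H4, Asf1a and Asf1b had about as many WT reads as each other and Nasp fewer. Asf1a (chromosome 10, 53596961 to 53609225), which lies within the annotated span of Mcm9, had 34 reads in WT (23.5 to 47.5) and 16 in KO (9.15 to 26.0). Asf1b (chromosome 8, 83955694 to 83970195), the paralogue more closely tied to dividing cells, had 32 in WT (21.9 to 45.2) and 13 in KO (6.92 to 22.2). At each paralogue the KO interval overlapped the WT interval. Scaled to depth, KO reads were 0.626 times WT at Asf1a (0.322 to 1.16) and 0.540 times at Asf1b (0.260 to 1.06). Both intervals hold 1. The KO summit of Asf1b sat 267 bp before the gene start where the WT summit sat 102 bp before it, the largest move among the members. It lay toward the start of the divergent lncRNA gene Gm10644, 361 bp from that of Asf1b. The WT region covers both starts, so its reads cannot be assigned to either gene. Over 2350 gene-end regions in both lists with summed reads in the members' range, the median move was 34 bp and the largest 708 bp.

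Nasp (chromosome 4, 116601052 to 116628676, minus strand) had 17 reads in WT (9.90 to 27.2) and 10 in KO (4.80 to 18.4), with summits 86 and 91 bp before its start. Its KO region, with a fold enrichment of 4.58 at percentile 5.29 of the KO list, shared that lowest place among the members with Daxx. Its promoter was one of the 2 with few CpG among the members, though its 13 exceeded the median of 7 over all windows. In WT its fold enrichment of 6.38 was close to the list median of 6.52. The interval of its depth-scaled ratio, 0.782 (0.320 to 1.81), holds 1.

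**Figure D2:**
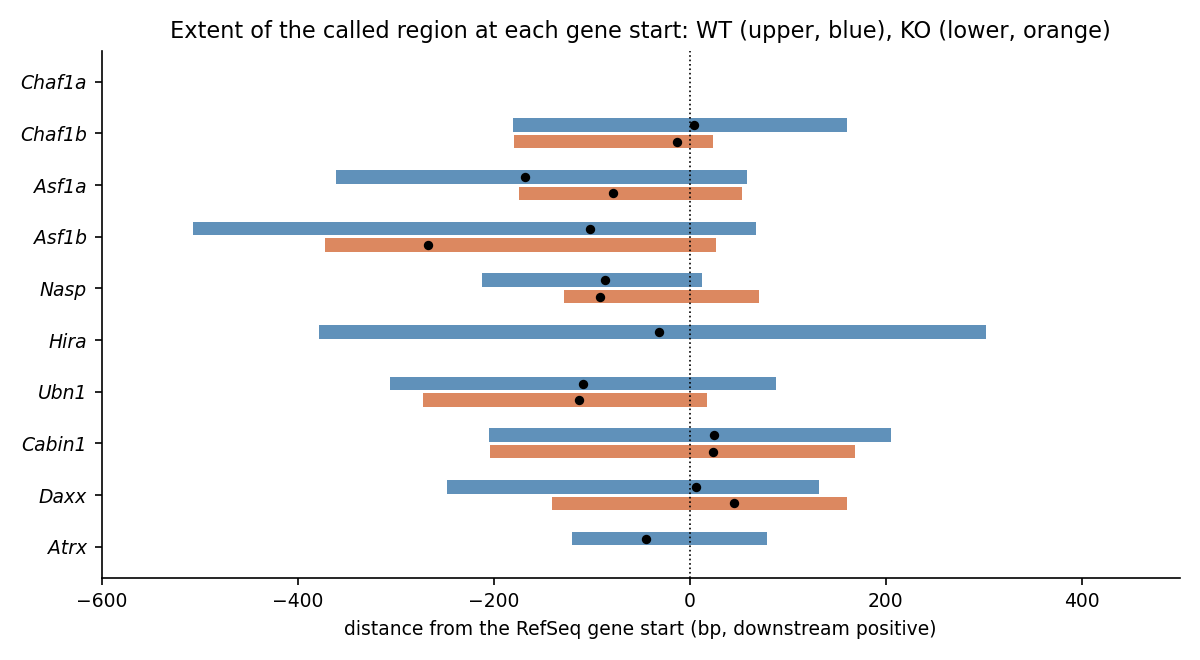
Extent of each called gene-end region along the x axis, in bp from the RefSeq gene start with downstream positive (for Daxx the listed start nearest the WT summit), in WT (upper bar, blue) and KO (lower bar, orange); dots are summits. All 7 kept regions were narrower in KO, and the Hira region was the widest at 681 bp.

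Of the HIRA complex genes, Ubn1 and Cabin1 stood high and Hira itself low. Ubn1 (chromosome 16, 5050057 to 5086289), which encodes the subunit that contacts H3.3, had 34 reads in WT (23.5 to 47.5) and 13 in KO (6.92 to 22.2), so that its intervals did not overlap before scaling for depth. Its WT fold enrichment of 12.7 was the highest of the members, and in KO it was 6.42. The KO share of its reads was 27.7% (15.6 to 42.6), the lowest of the members, and its depth-scaled ratio of 0.508 (0.246 to 0.988) was the only one of 7 whose interval lay below 1. Among 567 gene-end regions of other and member genes with a summed read number within 3 of that of Ubn1, the median KO share was 37.8% and 5.29% had a lower share than Ubn1. The region also covers the start of Glyr1, 147 bp away on the other strand, so the reads cannot be assigned to either gene.

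Cabin1 (chromosome 10, 75646110 to 75764357, minus strand), the third subunit of the complex, had 33 reads in WT (22.7 to 46.3) and 17 in KO (9.90 to 27.2). It had the highest KO fold enrichment at a gene end, 8.18, against 10.4 in WT, and its summits were 1 bp apart. Local background, the reads expected at the summit from the 10 kb around it, was lower there against WT than at any other kept member. It was 0.531 times the WT value, where depth alone would give 0.752. In 7.66% of the 3784 gene-end regions in both lists that ratio was lower. Upstream, a region 9.19 kb before Cabin1 in WT, at the start of Ddt, had 32 reads in WT and 25 in KO.

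Hira (chromosome 16, 18876750 to 18970309), the H3.3 chaperone that gives the complex its name, had the widest but lowest WT region by fold enrichment. It spanned 681 bp (18876372 to 18877052), held 14 reads at the summit (7.65 to 23.5) at a fold enrichment of 4.66, and covered the divergent start of Mrpl40, 113 bp from that of Hira. A separate WT region began shortly beyond the gene-end window (18877792 to 18878023, summit 1.10 kb after the start), also with 14 reads. Neither was called in KO, and the nearest KO region lay 64.6 kb away, upstream of the gene. A region inside the gene (18958298 to 18958694 in WT), 81.7 kb after the start, held 13 reads in WT and 12 in KO, with summits 3 bp apart. Hira thus had no KO call at its start and 1 deep in the gene. The WT reads of these 2 sites were close, 14 and 13. The inner site had a lower WT local background (1.46 against 2.22) and a higher WT fold enrichment (5.69 against 4.66).

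Daxx and Atrx, partners on the heterochromatin route, both had fewer reads in WT than the list median of 18, as did Chaf1b, Nasp and Hira. Daxx (chromosome 17, 33909404 to 33915590) had 16 reads in WT (9.15 to 26.0) and 10 in KO (4.80 to 18.4), at fold enrichments of 5.63 and 4.58, beside the start of the lncRNA gene BC051226. Atrx (X chromosome, 105797615 to 105929372, minus strand) had the fewest reads of the members, 12 in WT (6.20 to 21.0), in a region of 200 bp (105929293 to 105929492), the shortest length in the list. It had no KO region over the gene or within 10 kb of it, and the nearest was 257 kb away.

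The WT-only regions were set beside the reads at which the KO list made calls. Scaled to KO depth, the WT reads came to 10.5 at Hira (5.76 to 17.7) and 9.03 at Atrx (4.66 to 15.8). KO regions with a like local background were called from 9 reads up in the case of Hira and from 7 up in that of Atrx, and 90% of them had at least 12 and 9 reads. The missing KO calls at the starts of Hira and Atrx therefore do not show whether the signal there changed. The WT-only region inside Ubxn6, near Chaf1a, had more reads, 21.8 scaled to KO depth (14.6 to 31.3). The 41 KO regions with a like local background were called from 15 reads up, and 90% of them had at least 19. Of WT gene-end regions with 12 to 17 reads, 24.1% (22.4 to 26.0) were kept, and of those with 32 to 34 reads 94.8% (91.7 to 97.0). All 4 members with 32 to 34 reads were kept. Of the 5 members with 12 to 17 reads, Chaf1b, Nasp and Daxx were kept, and Hira and Atrx were not.

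**Figure D3:**
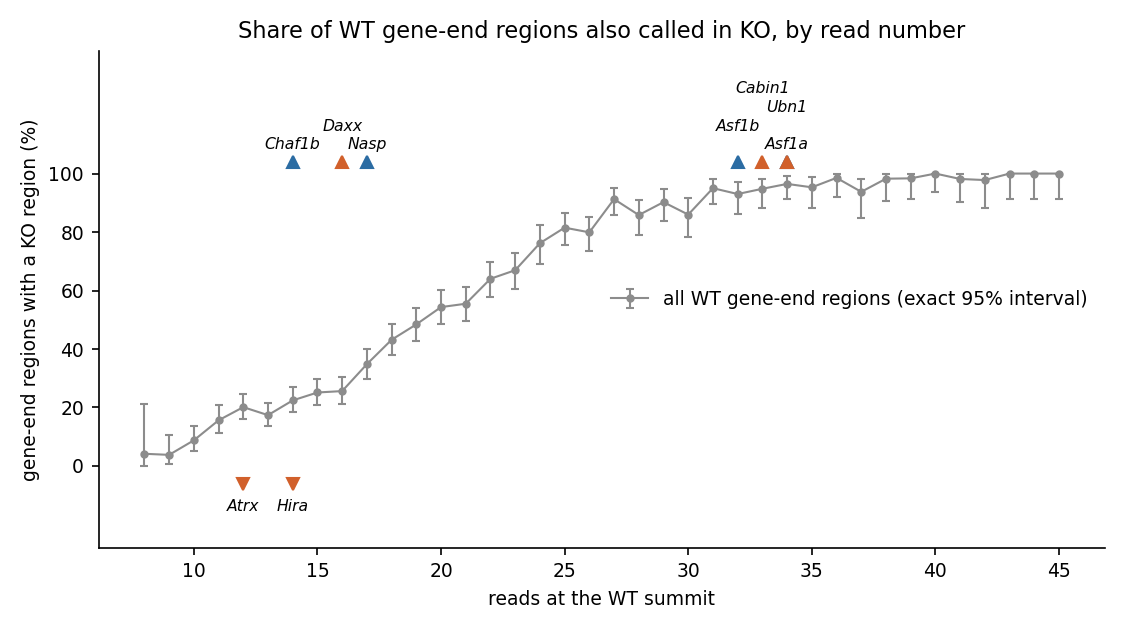
Share of all WT gene-end regions that overlapped a KO region (y axis, exact 95% intervals) by reads at the WT summit (x axis); triangles pointing up are members kept in KO and those pointing down members called in WT only (blue replication-coupled, orange H3.3), set above and below the scale. Hira and Atrx lie where about 20% of regions were kept.

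The 2 classes, chosen with earlier results of these data known, were set side by side without a test. Of the replication-coupled genes, 4 of 5 had a WT gene-end region and 4 of these 4 were kept, and of the H3.3 genes 5 of 5 had one and 3 were kept. The exact intervals of the kept shares, 39.8 to 100% and 14.7 to 94.7%, overlapped widely. Median WT fold enrichment was 8.19 in the replication-coupled class and 5.63 in the H3.3 class, against 7.24 over all protein-coding genes with such a region. In KO the order of the medians was the other way, 5.69 and 6.42, over the 4 and 3 genes with a region there. No interval was made for these medians. Both classes held genes with over 30 WT reads (Asf1a and Asf1b, Ubn1 and Cabin1) and genes with 17 or fewer, so the range of WT fold enrichment within each class was wider than the gap between their medians. At kept gene ends, the KO share of reads was 34.9% (27.3 to 43.1) in the replication-coupled class, 52 of 149 reads, and 32.5% (24.4 to 41.6) in the H3.3 class, 40 of 123 reads, and the intervals overlap.

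Over all 7 kept members, KO held 92 of 272 summit reads, or 33.8% (28.2 to 39.8). This was below the depth share of 42.9%. The 2350 gene-end regions of all genes called in both lists, in the same range of summed reads, held 38.8%, which the members' interval includes. A KO share under that of depth was thus seen over the gene-end regions called in both lists. Regions called in WT only have no KO reads here and are not part of that set. Of the 7 members, 6 had a lower KO share than the median of gene-end regions with a like read number, and Chaf1b a higher one (48.1% against 42.9%). At 14 WT reads, the need for a KO call leaves only high shares, so this place of Chaf1b cannot be read as a difference. All 7 regions were narrower in KO, as were 84.2% of the gene-end regions in both lists. The median ratio of KO to WT width was 0.737 in the members and 0.761 over all. Over the 2350 regions in the members' range of summed reads it was also 0.737. Local background at the members was 0.531 to 0.857 times that of WT, with a median of 0.693 against 0.673 over all gene-end regions in both lists. These ratios were not scaled for depth, which alone would give 0.752.

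**Figure D4:**
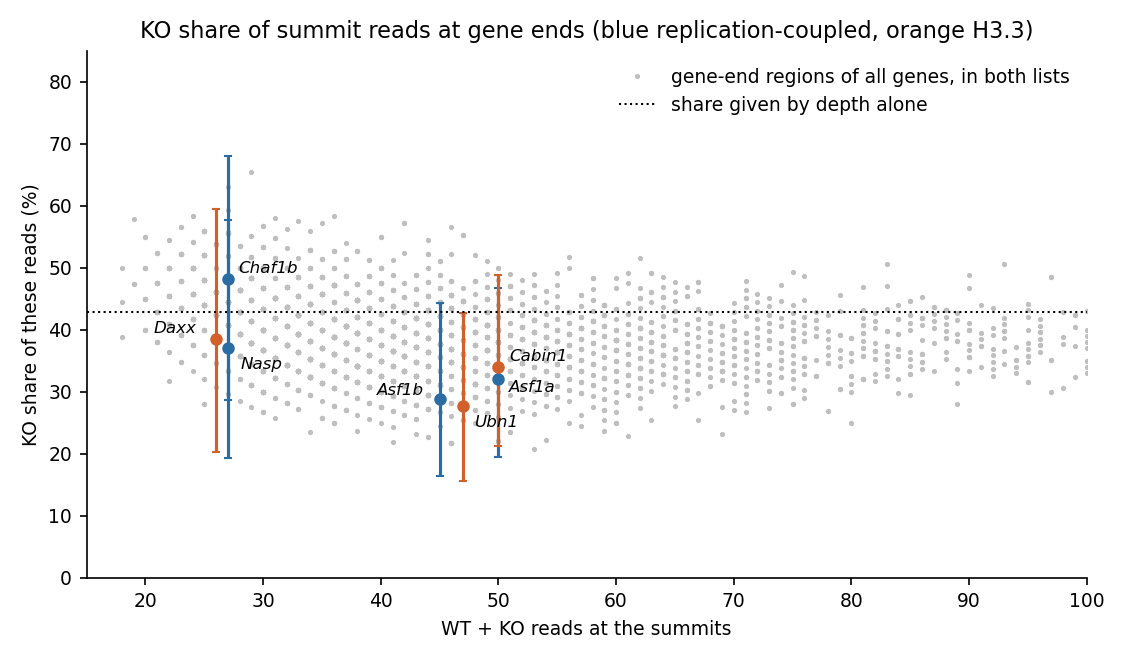
KO share of the summed summit reads (y axis) against the summed WT and KO reads (x axis) at gene-end regions called in both lists; grey dots are regions of all genes up to 100 reads, coloured points are members with exact binomial 95% intervals, and the dotted line is the share given by depth. Asf1a, Asf1b, Ubn1 and Cabin1 lie between 27.7% and 34%, and Chaf1b lies highest at 48.1%.

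Within their bodies and flanks of 10 kb, the 10 genes held 16 WT and 11 KO regions, 8 WT regions in each class. Of the 16, 11 were kept (68.8%, 41.3 to 89.0), 6 of 8 replication-coupled and 5 of 8 H3.3, against 47.1% of WT regions that near to any protein-coding gene and 46.2% of the whole WT list. The interval holds both shares. Away from the members' own ends, 7 WT regions remained and 4 were kept. Of the 7, 4 lay within 1 kb of a start of a neighbouring gene (Sh3gl1, Ubxn6, Prkaca and Ddt). The most accessible of them, 17.2 kb after the Asf1b start at the start of the neighbour Prkaca, a kinase gene, had 54 reads in WT (40.6 to 70.5) and 31 in KO. Hira was the only member with regions inside the gene body away from its ends, and Cabin1 and Atrx, which are longer, had none. Among the 375 protein-coding genes from the length of Hira to that of Atrx with a WT gene-end region, 41.3% had an internal WT region and 20% an internal KO region.

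**Figure D5:**
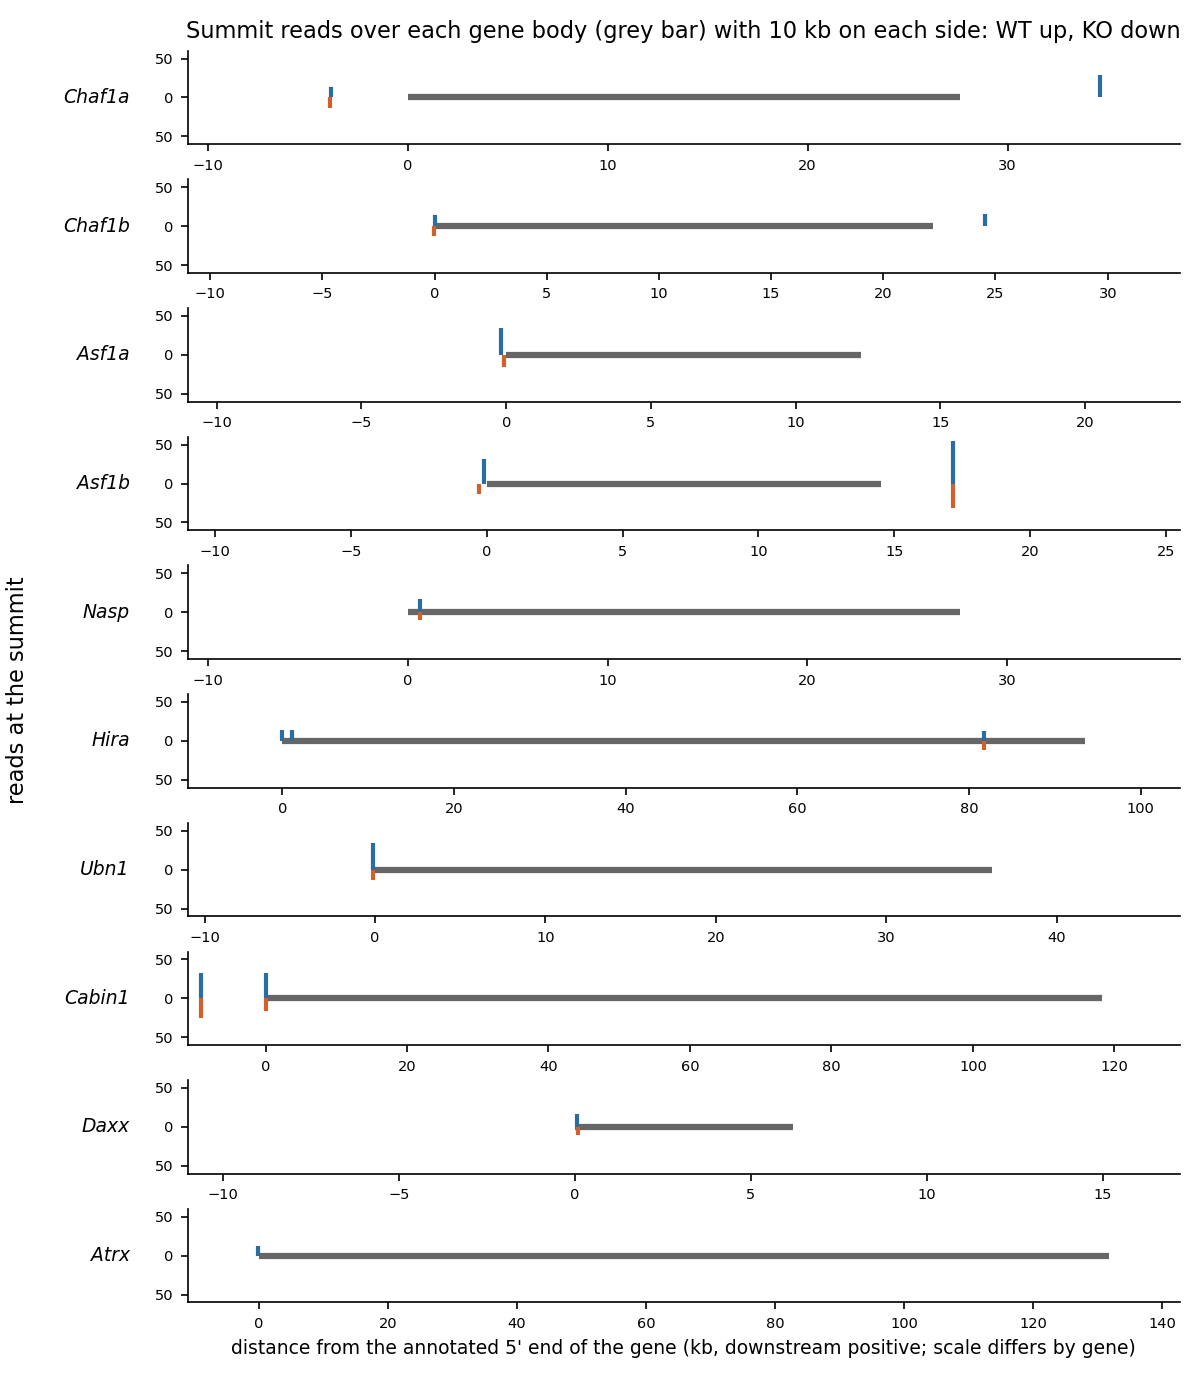
Summit reads (y axis) of every called region over each gene body (grey bar) and its 10 kb flanks, along the distance from the annotated 5′ end in kb (x axis, own scale per gene), WT upward in blue and KO downward in orange. Regions cluster at the 5′ ends, and Hira alone had internal regions. That at 1.10 kb had 14 reads in WT and no KO region, and that at 81.7 kb had 13 reads in WT and 12 in KO.

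Among 30 other histone chaperones and partners of these genes, 21 had a WT gene-end region and 14 of these were kept (66.7%, 43.0 to 85.4), an interval that holds the 59.0% of all genes. Pcna, the clamp that recruits CAF-1, had a WT fold enrichment of 11.3, and the nucleosome assembly genes Nap1l4 and Nap1l1 had 12.2 and 9.90, with a KO region at each. The highest after Nap1l4 and Pcna was Npm1 (10.1), a nucleolar histone chaperone, with 26 reads in WT and 12 in KO. Rbbp4 (8.56 and 7.67 in KO), the small CAF-1 subunit, and Ubn2 (8.62 and 9.35), the paralogue of Ubn1, were kept. Called in WT only were H3f3a (5.07), which encodes H3.3 itself, Mcm2 (5.58) and Dnajc9 (6.46), which both bind H3-H4, Cdan1 (4.96), a cytosolic partner of Asf1, and Supt16 (5.06) and Supt6 (5.37), chaperones that travel with RNA polymerase. H3f3b, the other H3.3 gene, had no gene-end region in either list. Ipo4, the importin that carries H3-H4, had a KO region only (fold enrichment 5.93, 13 reads). At Mms22l, a partner of Tonsl at forks, a region was called at the gene end in each list but the 2 did not overlap (24496117 to 24496450 in WT, 24496475 to 24496991 in KO, chromosome 4).

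The cell type was checked against markers. Of 12 DP markers, 9 had a WT gene-end region, including Rag1, Rag2, Cd8b1 and Ptcra, and 1, Cd8b1, a KO region. Cd4 and Cd8a had none in either list. Over all protein-coding genes, 34.6% had such a region in WT and 21.1% in KO, and 59.0% of those with a WT region were kept. The DP markers thus lay above the share of all genes in WT and below it in KO. Of B cell, myeloid, erythroid and stromal or epithelial markers, 1 of 19 had a region in WT (Ebf1) and 0 of 19 in KO. Of 4 natural killer markers, Gzma and Prf1 had a region in both lists. The part of these differences in the results was not tested.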

How the data were processed

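ATAC-seq of 2 WT and 2 KO samples of sorted DP thymocytes was read from 1 list of regions per group, which the authors made from both replicates, per the labels. FastQC, Trim Galore, Bowtie2, GATK, Picard 4.1.5.0, deepTools 3.4.1 and MACS2 2.1.4 and the build mm10 are named in the submitters' processing notes. How they were set, and whether reads were shifted or duplicates removed, is not given in the sources used here. Each line the authors deposited holds a score (10 times the -log10 q, cut to a whole number), the summit's fold enrichment, its -log10 p and its -log10 q. The summit lists repeated all 15215 WT and 7645 KO positions.

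Summit reads and local background were solved per region, taking fold enrichment as (reads + 1) / (background + 1) and p as a Poisson tail. Solved reads were whole within 0.05 on 100% of lines. Relative depth is the ratio of the most frequent backgrounds, 1.03 in KO and 1.37 in WT. Library totals were not used here. With 1 list per group no test between groups was made. Regions with a like summed read number lay within 3 reads of a member's. Gene positions, strands and promoters came from RefSeq GRCm38.p6, matching 10 of 10 members and 30 of 30 partner genes. Exons were not used here. The members and lists were chosen with earlier results of these data known. All 10 members, partners called in 1 list or with the 3 highest WT fold enrichments, and the 5 genes most like Chaf1b were named. Others were chosen after their values were seen. The solver, overlap and motif search were tested on simulated data. Settings varied were the -log10 q threshold, overlap rule, window, flank, list length and read measure. Python 3.11.15 was used with scipy 1.17.1, numpy 2.4.6 and pandas 2.3.3, and figures were drawn with matplotlib 3.10.9.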

Additional observations from a re-analysis of the deposited data

How the results depend on the processing

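Member gene ends kept in KO numbered 7 of 9, and 5 to 7 when the -log10 q threshold was 2 or 5, when the overlap rule was stricter, or when the window was 500 or 2000 bp. With a -log10 q of at least 10 in both lists, 1 of 4 members was kept (Cabin1), 0 of 2 replication-coupled and 1 of 2 H3.3, against 41.6% of all genes under that setting, and so were 3 of 7 regions over gene bodies with flanks and 6 of 14 partner genes. With the WT list limited to the length of the KO list by fold enrichment, 4 of 4 members (2 of 2 in each class) and 6 of 6 body regions were kept, against 77.6% of all genes. Fewer regions were compared under both settings. With flanks of 0, 5 or 20 kb, 8 of 11, 10 of 14 and 14 of 19 body regions were kept. For body regions, no share over all regions is given under the changed settings, so these counts stand without a background. The KO share of reads lay between 32.2% without Chaf1b and 34% at a -log10 q of at least 10, which leaves Cabin1 alone. No paired analysis was possible because each group has 1 pooled list, and for the same reason no replicate could be left out. At 10 to 17 KO reads a gene, only large differences can exceed counting error.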
